A study of Mus musculus with 4 samples.

Results

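The pigment epithelium and melanogenesis genes described here are 10 genes, Mitf, Tyr, Tyrp1, Dct, Pmel, Mlana, Slc45a2, Rpe65, Ttr and Serpinf1, taken by name from the 25239 gene IDs of 4 RNA sequencing tables. Each member stood on 1 row in each table, at the same position in all 4. The tables come from dissected retina of mouse embryos at E13.5 (E, embryonic day), with 2 libraries whose genotype is labelled control and 2 labelled Isl1cKO. Isl1 encodes a LIM-homeodomain protein of developing retinal neurons, and the comparison asks what the retina expresses without it. The labels used here name no allele, Cre driver, strain or pooling of embryos, and no further treatment is named. Levels are in TPM, a measure of transcript abundance that is scaled to transcript length and to a fixed total per library, so it can be compared between genes.

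The retinal pigment epithelium is a pigmented cell layer that lies against the outer face of the neural retina and develops from the same optic vesicle. Its melanin is made inside melanosomes, organelles related to lysosomes: Tyr, Tyrp1 and Dct carry out the chemistry, Pmel forms the fibrils on which melanin is laid down, and transporters set the conditions inside. Mitf, a basic helix-loop-helix leucine zipper factor, binds E-box sequences before these genes in the pigment epithelium and in melanocytes. The epithelium is also known for the retinoid cycle, in which Rpe65 is the isomerase, and for secreted carriers and factors such as Ttr and Serpinf1.

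The start regions of the 3 melanin enzymes are shown first because they carry the E-box core, and that of Serpinf1 because it holds the same letters and its levels differed from the enzymes in the opposite sense. The stretches are RefSeq sequence of the assembly GRCm38.p6, read 5′ to 3′ on the gene's strand, with CATGTG or its reverse complement CACATG in capitals. Tyr is shown over chr7:87493513-87493632 (minus strand), Tyrp1 over chr4:80834093-80834212 (plus strand) and Serpinf1 over chr11:75422624-75422743 (minus strand), each being the 120 bases before its start. Dct is shown over chr14:118052377-118052496 (minus strand), from 250 to 131 bases before its start.
Tyr: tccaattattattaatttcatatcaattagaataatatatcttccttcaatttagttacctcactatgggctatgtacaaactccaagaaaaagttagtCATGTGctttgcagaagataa
Tyrp1: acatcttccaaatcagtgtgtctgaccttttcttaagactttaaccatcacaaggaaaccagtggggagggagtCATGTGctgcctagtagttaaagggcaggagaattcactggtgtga
Dct: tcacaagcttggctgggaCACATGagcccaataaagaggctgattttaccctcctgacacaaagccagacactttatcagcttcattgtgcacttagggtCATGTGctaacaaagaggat
Serpinf1: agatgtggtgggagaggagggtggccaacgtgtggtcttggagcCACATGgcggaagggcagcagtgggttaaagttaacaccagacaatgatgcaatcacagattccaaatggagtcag

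Start windows, of 250 bases before a RefSeq start and 50 from it on, were found for 6 of the 10 members, in 8 windows because Mitf had 3 starts. CATGTG, searched on both strands, was in 5 of these 8 windows, against 14.2% of all 32851 windows. Its first base lay 21 bases before the start of Tyr, 46 before that of Tyrp1 and 150 before that of Dct, each on the gene's strand. On the opposite strand it lay at 232 bases in Dct, 76 in Serpinf1 and 239 in Rpe65. The related core CACGTG was in 0 of the 8 windows and in 7.15% of all. The longer M-box, AGTCATGTGCT, which contains CATGTG, was taken from the Tyr window, so its match there was fixed in advance. It was also in the window of Tyrp1, and in 7 of all 32851 windows with those of Tyr and Tyrp1 included. Its inner letters TCATGTGCT, also taken from Tyr, were in the windows of Tyrp1 and Dct as well and in 0.408% of all windows. The 3 Mitf windows held neither core. These matches describe letters and not bound sites.

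**Figure D1:**
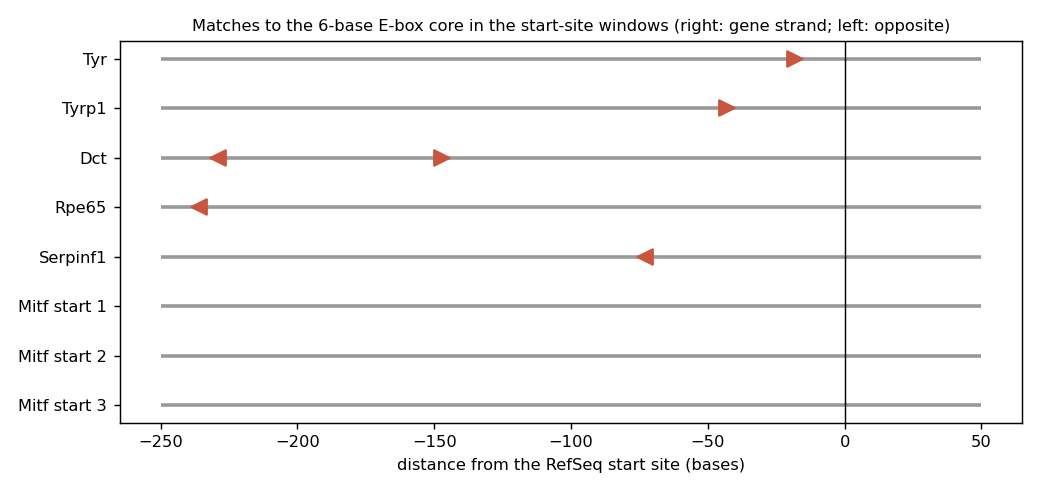
Position of CATGTG in the start-site windows of 6 members, in bases from the RefSeq start (0), with a triangle pointing right for a match on the gene's strand and left for one on the opposite strand. Tyr and Tyrp1 have their match within 50 bases of the start, Dct has 2 farther out, and the 3 Mitf windows have none.

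The tables give no read counts, and the median ratio of coverage per base to FPKM, which scales with sequenced depth, lay between 12.6 and 14.3, lowest in Isl1cKO replicate 2. Genes at 1 TPM or more numbered 13554 to 13932. Retinal progenitor genes were high in every library, as with Rax at 405 to 477 TPM and Six6 at 204 to 245 TPM. The 7 genes of that list summed to 3486 and 3100 TPM in control and to 2303 and 2749 TPM in Isl1cKO, with 4 at a negative and 3 at a positive fold change and 0 called. Of these, Ccnd1, which encodes cyclin D1, made up the largest share of the sum in every library. It had 1944 and 1498 TPM in control and 848 and 961 TPM in Isl1cKO (log2 fold change -0.92; adjusted p = 0.158, limma). The other log2 fold changes of the list lay between -0.17 (Six3) and 0.18 (Six6), so the lower sum in Isl1cKO is not shared across the list. The targeted gene, Isl1 (chromosome 13, 116298270 to 116309688, minus strand), had 242 and 201 TPM in the 2 controls against 321 and 223 TPM in Isl1cKO replicates 1 and 2. With a log2 fold change of 0.28 (SE 0.21; adjusted p = 0.683, limma), its level was not lower in the libraries labelled Isl1cKO. The fold change was 0.014 without Isl1cKO replicate 1, 0.54 without Isl1cKO replicate 2 and 0.15 without control replicate 2. A level per gene does not show whether its transcripts are intact, so it can neither bear out nor contradict the genotype label. Every direction below rests on the label alone, and Isl1cKO stands for the libraries so labelled.

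Pigment genes were present at low levels beside the retinal genes, and none of them passed the test between genotypes. Of the 10 members, 8 had at least 1 TPM in at least 2 libraries and were tested. In limma 0 of these reached an adjusted p under 0.05, where 0.493% of all 13984 genes tested did, and 2 (Mlana and Ttr, both lower in Isl1cKO) had an unadjusted p under 0.05, as 8.92% of all genes did in that direction and 3.20% in the other. Slc45a2 stayed under 1 TPM in every library, and Rpe65 was listed at 0 in all 4. In 6 of the 8 tested members the log2 fold change was negative, and in Mitf and Serpinf1 it was positive. Over all genes tested 63.8% had a negative fold change, the share against which this count and those of the lists below are to be read. The members' median was -0.29, beside -0.05 over all genes tested. In whole-tissue RNA, fewer pigment cells and less RNA per cell cannot be told apart.

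**Figure D2:**
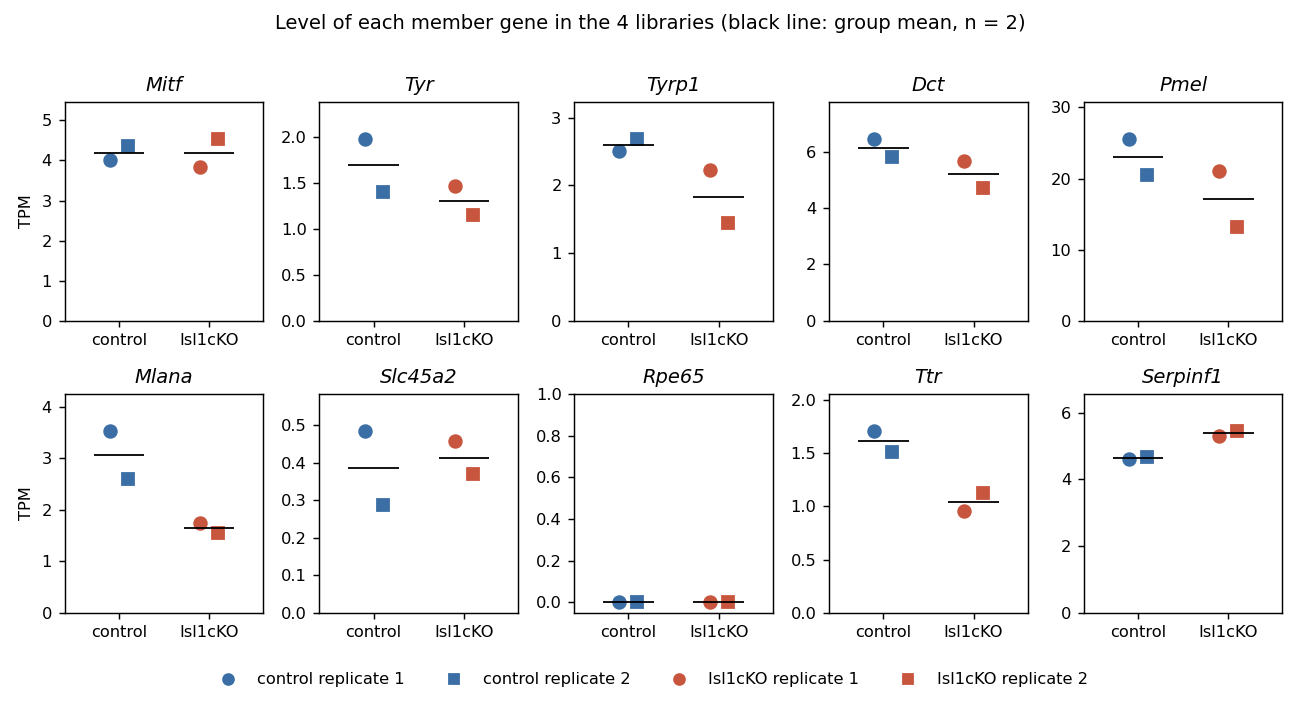
TPM of each member in the 4 libraries, with circles for replicate 1, squares for replicate 2, blue for control, red for Isl1cKO and a black line at each group mean (n = 2); every axis starts at 0 except that of Rpe65, which is listed at 0 throughout. Mlana, Ttr, Tyrp1 and Dct lie lower in both Isl1cKO libraries than in both controls, Serpinf1 lies higher, and Mitf, Tyr, Pmel and Slc45a2 overlap.

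Mitf (chromosome 6, 97807058 to 98021358, plus strand), the regulator of the group, had 4.002 and 4.36 TPM in control replicates 1 and 2 against 3.84 and 4.55 TPM in Isl1cKO replicates 1 and 2. The lowest and the highest of the 4 values were both in libraries labelled Isl1cKO, so the control values lay inside their range. Its log2 fold change was 0.0013 (SE 0.11; adjusted p = 0.998, limma), with a 95% interval from -0.28 to 0.28. The interval corresponds to a fold of 0.823 to 1.22 on the (TPM + 1) scale. The sign of this value near 0 is not stable, and it turned to -0.10 without Isl1cKO replicate 2 and to -0.049 without control replicate 1. RefSeq gives Mitf 3 starts, at 97807058, 97929817 and 97991783, and the single row per table does not separate transcripts from them.

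Among the melanin enzymes, Dct (chromosome 14, 118012790 to 118052246, minus strand), the dopachrome tautomerase, had the highest level. Control replicates 1 and 2 had 6.46 and 5.80 TPM of it, and Isl1cKO replicates 1 and 2 had 5.67 and 4.71 TPM. The groups did not overlap, but Isl1cKO replicate 1 was closer to control replicate 2 than to the other Isl1cKO library. The log2 fold change was -0.21 (SE 0.12; adjusted p = 0.575, limma), with a 95% interval from -0.52 to 0.10. It was -0.32 on leaving out Isl1cKO replicate 1 and -0.094 on leaving out Isl1cKO replicate 2.

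Tyrp1 (chromosome 4, 80834213 to 80851736, plus strand), an oxidase that acts after Dct in the making of eumelanin, measured 2.51 and 2.69 TPM in control and 2.22 and 1.44 TPM in Isl1cKO, replicates 1 and 2 in turn. Both Isl1cKO values were below both controls, and the replicates within Isl1cKO differed by 42.5% of their mean against 7.09% in control. Its log2 fold change was -0.36 (SE 0.16; adjusted p = 0.469, limma). Leaving out Isl1cKO replicate 2 gave -0.16, and leaving out Isl1cKO replicate 1 gave -0.56.

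Tyr (chromosome 7, 87424771 to 87493512, minus strand), the rate-limiting enzyme of melanin synthesis, measured 1.98 and 1.40 TPM in control and 1.47 and 1.15 TPM in Isl1cKO. The groups overlapped, since control replicate 2 lay below Isl1cKO replicate 1. A log2 fold change of -0.22 (SE 0.15; adjusted p = 0.639, limma) resulted, with a 95% interval from -0.60 to 0.17. It was -0.061 without control replicate 1, -0.37 without control replicate 2 and -0.12 without Isl1cKO replicate 2.

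Pmel (chromosome 10, 128706258 to 128720238, plus strand), the fibril protein of the melanosome, had the highest level of all members in every library. Control replicates 1 and 2 had 25.6 and 20.4 TPM, while Isl1cKO replicates 1 and 2 had 21.04 and 13.2 TPM. Only the last library stood below the controls, and the other Isl1cKO library lay between them. Mean levels were 23.0 ± 3.67 TPM (control) and 17.1 ± 5.53 TPM (Isl1cKO; SD, n = 2). The log2 fold change of -0.43 (SE 0.25; adjusted p = 0.583, limma) had a 95% interval from -1.09 to 0.23. It became -0.12 without Isl1cKO replicate 2, -0.75 without Isl1cKO replicate 1 and -0.28 without control replicate 1. Dgka, on the opposite strand, shares 103 bases with the end of Pmel, with 7.36 and 6.29 TPM in control and 5.9997 and 4.32 TPM in Isl1cKO. Dgka was looked at because of this overlap. Whether strand was used in assigning reads is not stated, and its part in the Pmel values was not tested.

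Mlana (chromosome 19, 29697941 to 29708306, plus strand), a small membrane protein needed for Pmel to mature, had the most negative fold change of the tested members. Control libraries had 3.54 and 2.61 TPM of it, and Isl1cKO libraries 1.74 and 1.55 TPM. Both Isl1cKO values were below both controls, and the gap between the groups, from 2.61 to 1.74 TPM, was slightly smaller than the one between the controls. The log2 fold change was -0.61 (SE 0.14), with a 95% interval, not adjusted for the number of genes, from -0.98 to -0.24. In limma its unadjusted p was 0.00890 and its adjusted p 0.239. Of all genes tested, 3.72% had a smaller p-value.

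Slc45a2 (chromosome 15, 11000721 to 11029233, plus strand), a melanosomal transporter, measured 0.485 and 0.287 TPM in control and 0.458 and 0.369 TPM in Isl1cKO. The highest and the lowest value were both in control, so the groups overlapped. With a mean coverage of 1.42 to 2.55 per base, against 65.5 to 134 for Pmel, it was measured with far less sequence. In the fit without a filter on low values its log2 fold change was 0.032 (adjusted p = 0.935, limma).

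**Figure D3:**
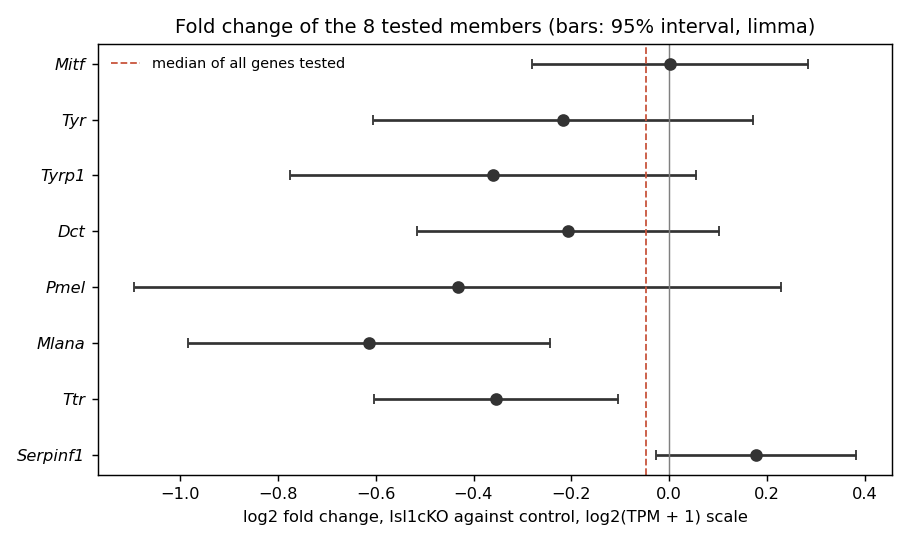
Log2 fold change (Isl1cKO against control, on the log2(TPM + 1) scale) of the 8 tested members, with 95% intervals from limma that are not adjusted for the number of genes; the dashed line is the median of all genes tested (-0.05). The intervals of Mlana and Ttr lie below 0, and those of the other 6 include 0.

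The members known for the other work of the pigment epithelium did not share a direction. Rpe65 (chromosome 3, 159599181 to 159625307, plus strand), the retinoid isomerase of the visual cycle, was listed at 0 in all 4 libraries, and between 6846 and 7332 gene IDs per library were listed at 0. Ttr (chromosome 18, 20665250 to 20674326, plus strand), a carrier of thyroxine and of the retinol-binding protein, measured 1.71 and 1.51 TPM in control against 0.958 and 1.13 TPM in Isl1cKO. The groups were apart, and the lowest value was in Isl1cKO replicate 1, unlike in the enzymes. In limma the log2 fold change of -0.35 (SE 0.09) had an unadjusted p of 0.0156 and an adjusted p of 0.288. At a pseudocount of 0.1 in place of 1 it was -0.58.

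Serpinf1 (chromosome 11, 75410029 to 75422623, minus strand), which encodes the secreted factor PEDF and is also made by mesenchymal cells, went the other way. Control libraries had 4.62 and 4.68 TPM of it, and Isl1cKO libraries 5.31 and 5.46 TPM. The replicates lay close together, differing by 1.36% of their mean in control and by 2.80% in Isl1cKO, and both Isl1cKO values were above both controls. The log2 fold change was 0.18 (SE 0.08; adjusted p = 0.471, limma), with a 95% interval from -0.027 to 0.38. As a ratio of means, Isl1cKO stood at 1.16 times control.

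Counts of groups that do not overlap are common in a comparison of 2 against 2 libraries. Both Isl1cKO values were below both controls in 4 of the 8 tested members (Tyrp1, Dct, Mlana and Ttr) and in 30.0% of all genes tested. They were above both controls in 1 member, Serpinf1, and in 14.9% of all genes. The 5 tested members of melanin synthesis and the melanosome (Tyr, Tyrp1, Dct, Pmel and Mlana) had their lowest value in Isl1cKO replicate 2 in each case. The share of all genes tested with their lowest value there is not given here. That library also had the fewest genes at 1 TPM or more (13554). With it as the only Isl1cKO library, the median fold change of all genes tested was -0.076, against -0.015 with replicate 1 alone. Whether the low values of these members go beyond this shift was not tested. Summed over all 10 members, the level was 50.9 and 43.8 TPM in control and 42.7 and 33.6 TPM in Isl1cKO. The step from control replicate 2 to Isl1cKO replicate 1 was smaller than the step between the replicates of either group. Without Pmel, which makes up a large share of the sum, the other 9 members came to 25.3 and 23.3 TPM in control and to 21.7 and 20.4 TPM in Isl1cKO.

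The order of levels was much the same in every library. Pmel ranked first in all 4, and its range of 13.2 to 25.6 TPM did not meet that of any other member. Dct and Serpinf1 followed, and their ranges over the 4 libraries overlapped, with Serpinf1 above Dct in Isl1cKO replicate 2 only. By TPM, Mitf came next in each library, apart from both its neighbours. At a mean coverage of 5.75 to 6.31 per base, it had less sequence than Tyrp1 (7.13 to 13.2) and Mlana (7.69 to 18.6) despite its higher TPM. The reason was not tested, so the rank of Mitf is uncertain. Mlana and Tyrp1 overlapped and changed places between libraries, as did Tyr and Ttr, and Tyr overlapped with Tyrp1 as well. Slc45a2 and Rpe65 closed the order in all 4. In the controls the mean of Pmel stood above 70.5% of all gene IDs, that of Dct above 56.3% and that of Tyr above 48.1%.

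Ratios within a library do not depend on its scaling and show how the members stood to each other. Per unit of Pmel, Dct stood at 0.252 and 0.284 (control) and at 0.270 and 0.356 (Isl1cKO), so it overlapped except for Isl1cKO replicate 2. Per unit of Dct, Tyrp1 stood at 0.388 and 0.464 (control) and at 0.391 and 0.306 (Isl1cKO), again apart only in that library. For Mlana per unit of Pmel the values were 0.138 and 0.127 (control) and 0.0826 and 0.117 (Isl1cKO), apart and lowest in Isl1cKO replicate 1. For Mitf per unit of Pmel they were 0.156 and 0.214 (control) and 0.183 and 0.344 (Isl1cKO), which overlap. For Ttr per unit of Serpinf1 they were 0.370 and 0.322 (control) and 0.1803 and 0.206 (Isl1cKO), the widest gap between groups among the 9 ratios computed. These ratios were chosen after values had been seen and were not tested.

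Other genes of pigment cells were read from 4 lists, and 0 of their 41 tested genes passed over all genes in limma, with 1 higher and 2 lower at an unadjusted p under 0.05. The higher one was Stra6 (log2 fold change 0.48), and the lower ones were Sox9 (-0.50), of the regulators around Mitf, and Krt18 (-0.40), of the pigment epithelium list. Of 8 further melanosome and pigment genes 6 were tested, 4 with a negative and 2 with a positive fold change, and their median was -0.081. The 3 highest were Trpm1, a cation channel that retinal bipolar cells also use, at 27.7 ± 0.857 and 31.0 ± 2.92 TPM (control, then Isl1cKO; SD, n = 2), Atp7a, a copper transporter that supplies Tyr, at 15.4 ± 0.548 and 14.4 ± 3.84 TPM, and Slc24a5, a cation exchanger of the melanosome, at 7.84 ± 0.643 and 7.31 ± 3.22 TPM. The last 2 had their lowest value in Isl1cKO replicate 2, at 11.7 and 5.03 TPM, as the melanin enzymes did. Here too the share of all genes tested that were lowest in that library is not given. At a mean coverage of 22.7 to 27.8 per base, against 58.0 to 91.4 for Atp7a, Trpm1 had less sequence despite its higher TPM. The reason was not tested, so its rank in the list is uncertain. Leaving out Isl1cKO replicate 1 took the list's median to -0.37, and leaving out Isl1cKO replicate 2 took it to 0.19.

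Genes for the transport of melanosomes and the assembly of related organelles are used by many cell types. Of 17 such genes 16 were tested, 11 with a negative and 5 with a positive fold change, and the median was -0.067. The highest were Ap3d1 and Ap3b1, subunits of the AP-3 adaptor, at 80.1 ± 0.648 and 49.5 ± 0.553 TPM in control and at 76.0 ± 1.31 and 48.4 ± 0.0488 TPM in Isl1cKO, and Dtnbp1, a subunit of the BLOC-1 complex, at 51.1 ± 6.14 and 51.9 ± 1.11 TPM (SD, n = 2). These levels were above that of Pmel, the highest member.

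Among relatives of Mitf and regulators around it, 6 of 7 were tested, 3 with a positive and 3 with a negative fold change, with a median of 0.073. Pax6 measured 538 ± 1.26 TPM (control) and 604 ± 8.27 TPM (Isl1cKO), with a log2 fold change of 0.17 (adjusted p = 0.486, limma). Otx2, which acts with Mitf in the pigment epithelium and is also made in photoreceptor precursors, was at 127 ± 7.60 and 117 ± 18.4 TPM. Otx1, a related homeobox gene, was at 24.9 ± 4.54 and 34.8 ± 8.55 TPM, with a log2 fold change of 0.46 (adjusted p = 0.499, limma). Pax6 and Otx1 were higher in both Isl1cKO libraries than in both controls, and Otx2 overlapped.

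Further pigment epithelium genes were mixed as well: 13 of 17 were tested, 8 with a negative and 5 with a positive fold change, and their median of -0.085 was close to that of all genes. The 3 highest were Trpm3, an ion channel, at 109 ± 7.47 and 120 ± 24.9 TPM (control, then Isl1cKO), Rdh10, a retinol dehydrogenase, at 49.2 ± 2.62 and 45.8 ± 2.03 TPM, and Stra6, a receptor for retinol-binding protein, at 34.6 ± 2.05 and 49.1 ± 10.7 TPM (SD, n = 2). At a mean coverage of 15.2 to 21.6 per base, against 234 to 252 for Rdh10, Trpm3 had less sequence despite its higher TPM. The reason was not tested, so its rank in the list is uncertain. The log2 fold change of Stra6 was 0.48 (adjusted p = 0.389, limma). Rbp4 had the most negative of the list, at -0.70 (adjusted p = 0.464, limma).

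**Figure D4:**
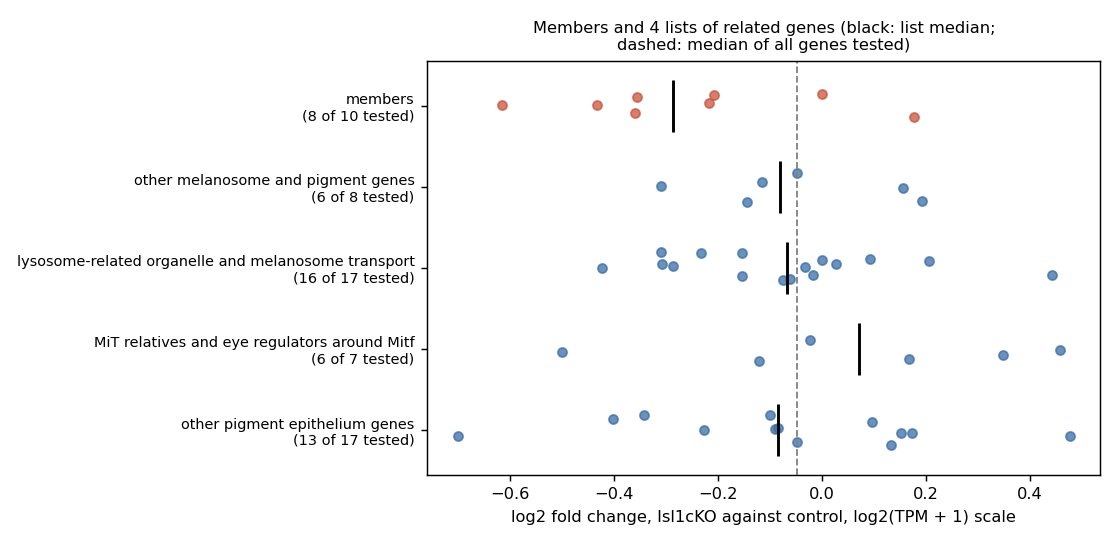
Log2 fold change of each tested gene (points, spread vertically at random) for the members and for 4 lists of related genes, with the list median as a black bar and the median of all genes tested as a dashed line. The members' median (-0.29) lies to the left of those of the 4 lists, which range from -0.085 to 0.073.

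Markers of tissues next to the retina were read in the same libraries, since dissection can carry them over. The summed level of 12 periocular mesenchyme genes was 29.4 and 22.5 TPM in control and 20.8 and 15.9 TPM in Isl1cKO, with all 5 tested genes of the list at a negative fold change and 0 called. Its defining factors Foxc1 and Foxc2 were at or under 0.406 TPM, and Col1a2 alone made up 11.8 to 18.002 TPM. That of 9 lens genes was 184 and 228 TPM in control and 11.8 and 9.21 TPM in Isl1cKO, with 5 of 9 tested genes called, all lower. Without a filter on low values 2 of them (Cryba4 and Crybb3) were called, and 3 lens genes without control replicate 1 or without Isl1cKO replicate 2. Red blood cell genes summed to 2903 and 4168 TPM in control and to 1418 and 204 TPM in Isl1cKO, with all 8 tested genes of 9 at a negative fold change and 0 called. Leaving out Isl1cKO replicate 1, 3 of them (Hba-a1, Hbb-bs and Hbb-bt) were called. The part of carried-over tissue in the values of the pigment genes was not tested. The order of the libraries in the mesenchyme sum was also that of the members' sum, highest in control replicate 1 and lowest in Isl1cKO replicate 2. The melanocyte and neural crest sum given below had this order too. So did the 17 transport genes, which many cell types use, at 371 and 369 TPM in control and 364 and 349 TPM in Isl1cKO. Not every mesenchyme gene kept the order: Col1a1 and Col3a1 had 0.864 and 1.04 TPM in control replicate 2 but 2.08 and 1.75 TPM in Isl1cKO replicate 1. Col1a2 was lowest in Isl1cKO replicate 1, at 11.77 TPM against 11.86 TPM in Isl1cKO replicate 2.

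Melanocytes make the same enzymes, so their markers were read too. Sox10, which defines neural crest derivatives, was listed at 0 and 0.358 TPM in control and at 0.062 and 0.072 TPM in Isl1cKO, and Pax3 stayed at or under 0.126 TPM. The 8 genes of this list summed to 40.3 and 34.9 TPM in control and to 30.6 and 27.6 TPM in Isl1cKO, of which Kit made up 13.4 to 24.0 TPM. Its 3 tested genes had negative fold changes and 0 were called.

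Ttr is also a gene of the liver, the yolk sac and the choroid plexus. The 8 liver and yolk sac genes summed to 2.49 and 3.53 TPM in control and to 6.16 and 10.96 TPM in Isl1cKO. Most of this difference came from Afp, with 0.315 and 0.783 TPM in control and 2.81 and 5.88 TPM in Isl1cKO. Apoa1, with 0.372 and 0.531 TPM in control and 1.68 and 2.06 TPM in Isl1cKO, gave much of the rest. Apoa2 overlapped, and Alb was at or under 0.244 TPM throughout. Of the 3 tested genes 2 had a positive fold change and 0 were called, while the replicate block called Afp and Apoa1. The part of such tissue in the Ttr values was not tested. The 7 choroid plexus genes summed to 10.99 and 13.3 TPM in control and to 11.8 and 10.8 TPM in Isl1cKO, so the groups overlapped, and Folr1 gave the largest share. The 8 ciliary margin genes, where the pigmented and neural layers meet, summed to 547 and 575 TPM in control and to 582 and 716 TPM in Isl1cKO, with 7 of 8 at a positive fold change and 0 called.

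**Figure D5:**
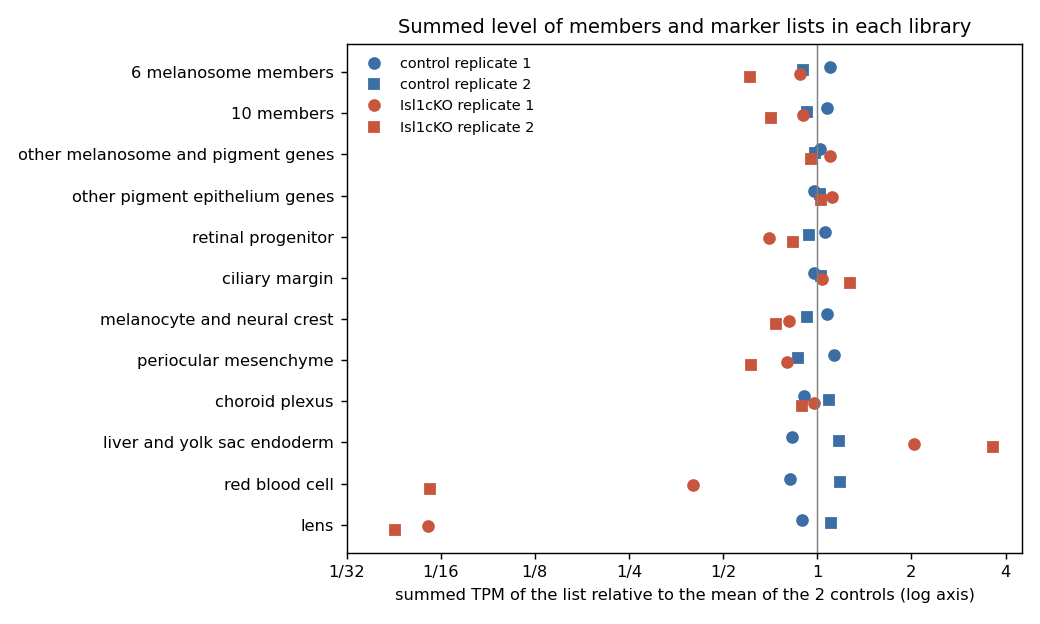
Summed TPM of the members and of marker lists in each library, relative to the mean of the 2 controls, on a log axis (circles, replicate 1; squares, replicate 2; blue, control; red, Isl1cKO). The melanosome members lie at 0.883 and 0.608 of the control mean in Isl1cKO replicates 1 and 2, while the lens list falls far to the left and the liver and yolk sac list to the right.

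The mean profile of the 5 tested melanosome members, each centred on its own mean of log2(TPM + 1), stood at 0.28 (control replicate 1), 0.081 (control replicate 2), -0.027 (Isl1cKO replicate 1) and -0.34 (Isl1cKO replicate 2). The 5 genes outside the members with the smallest Euclidean distance to it over the 4 libraries were Soga3 (0.0236), Mir344g (0.0252), Trp53inp2 (0.0325), Fam126a (0.0331) and Gm14434 (0.0338). A distance under 0.1 was reached by 110 genes, or 0.787% of the other tested genes. Soga3, the nearest, had 62.9 and 55.1 TPM in control and 49.9 and 40.5 TPM in Isl1cKO.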

How the data were processed

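RNA of 4 retina libraries, 2 control and 2 Isl1cKO, was analysed from 1 table per library. Per the labels' protocols, libraries were strand-specific and poly(A)-selected. The submitters' processing notes name HISAT2, StringTie and the build mm10, without versions or roles. Per the file headers, the authors deposited TPM, FPKM and coverage per base for each row. In every library the deposited TPM add up to 1000000. Deposited coverage was used only to describe depth, and deposited FPKM only in an alternative. No read counts are given, so no intervals from counts were computed.

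TPM was summed over repeated rows of a gene ID. Genes with at least 1 TPM in at least 2 libraries were fitted as log2(TPM + 1) with limma 3.58.1 in R 4.3.3, genotype as the only term, with Benjamini-Hochberg adjustment over all 13984 genes at 0.05. Fold changes on this scale understate those of low genes. The labels do not say whether replicates came from separate embryos, so p-values measure the spread between these libraries. The fit was tested on simulated data.

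The members, gene lists and tests were chosen with earlier results of these data known. Named were the members, Isl1, the 3 highest tested genes of each related list and the 5 genes nearest in profile. Other genes were chosen after their values were seen. One gene of the lists is not reported here and was left out of them. Motifs longer than 6 letters were added after the sequences were seen, and were cut from the Tyr window. RefSeq start windows (GRCm38.p6) matched the starts in the authors' tables for all 6 members found there. The coverage of the Mitf row was 3.54 to 3.99 times its FPKM, unlike the other members, and is given only beside its rank. Alternatives were another pseudocount, other filters, FPKM, median-ratio scaling, a mean-variance trend, the replicate block and leaving out each library.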

Additional observations from a re-analysis of the deposited data

How the results depend on the processing

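No member that was tested passed the threshold in limma under any of the 11 alternatives, and 0 to 5 had an unadjusted p under 0.05: a pseudocount of 0.1, no filter, a filter at 5 TPM, FPKM, median-ratio scaling, a mean-variance trend, the replicate block and each library left out. Only 3 members were tested at the filter of 5 TPM and 4 with FPKM, and Mlana and Ttr were not among them. The counts of 0 came from these fits. Directions held for Tyr, Tyrp1, Dct, Pmel, Mlana, Ttr and Serpinf1 wherever they were tested. Mitf, at 0.0013, turned to -0.049 without control replicate 1 and to -0.096 without Isl1cKO replicate 2, the highest of its left-out values being 0.099. The lowest adjusted p-value of a member was 0.0849, for Mlana with the replicate block, and over all its alternatives it lay between 0.0849 and 0.846. The summed level of the members had a log2 ratio of -0.31, which ranged from -0.50 to -0.15 over the left-out libraries. With a left-out library, the group of 1 is assumed to vary like the other.

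Over all genes, 69 passed (4 higher, 65 lower). The count was 44 at a pseudocount of 0.1, 15 without a filter, 127 with FPKM, 110 with a mean-variance trend and 265 with the replicate block, and 10 to 37 with each library left out. The labels do not say whether libraries of the same replicate number belong together. Deviations of the first replicates correlated at 0.126, which with 2 pairs cannot settle this, and the block changed no call of a member.

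The median of the transport list (-0.067) was -0.017 with FPKM and -0.012 under median-ratio scaling, and ranged from -0.095 to -0.013 over left-out libraries. That of the regulators (0.073) turned to -0.023 without a filter, and ranged from 0.053 to 0.10 over left-out libraries. The further melanosome genes ranged from -0.37 to 0.19 and the further pigment epithelium genes from -0.21 to 0.021. Median-ratio scaling moved the median of all genes from -0.048 to 0.0053. The cause of these shifts was not tested. Depth in reads is unknown, which limits what can be said of Slc45a2 and Rpe65. With 2 libraries a group, differences of the size seen in Pmel could not be told from the spread between replicates.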
